A study of Bos taurus with 22 samples.

Results

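Transcript abundance in circulating white blood cells was compared between Fertile and Sub-Fertile heifers of the Angus breed alone. The comparison held 12 of the 22 heifers of the series, 5 Angus Fertile (heifers 18 to 22) and 7 Angus Sub-Fertile (heifers 11 to 17), with group and breed taken from the sample labels and 1 library of polyadenylated RNA from each heifer. All 12 were purebred Angus heifers averaging 14 months of age and were bled at their first artificial insemination, after the same 7-day Co-Synch + CIDR protocol, a hormone and progesterone-insert treatment that synchronizes estrus. Fertile heifers conceived and calved from that first service, whereas Sub-Fertile heifers did not conceive after repeated insemination and exposure to a bull. The outcome was known only after sampling. The question was which transcripts differed before breeding between heifers of a single breed. The remaining 10 heifers, of the Holstein breed, enter only where a difference between breeds was tested or where their libraries stood beside an Angus library.

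White blood cells are a mixture of neutrophils, lymphocytes, monocytes and rarer leukocytes, and the RNA of a blood sample reflects both how many cells of each type it holds and how active each gene is in them. Fewer cells of a type and less RNA per cell cannot be told apart in these libraries. Lymphocytes that respond to antigen enter the cell cycle, switch on replication and mitosis genes and raise mitochondrial respiration, while plasma cells, the antibody-secreting end of the B lineage, depend on an enlarged secretory pathway. Circulating leukocytes also carry the glucocorticoid receptor and respond to the hormones of the estrous cycle.

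The 7 Sub-Fertile libraries held 13154971 to 38936648 counts, with a median of 28354518, and the 5 Fertile libraries 12182400 to 49228035, with a median of 43397234. Levels are given in CPM, a count scaled to the total of its library. Leukocyte transcripts were present in every library: the named members of the B cell, T cell, neutrophil and eosinophil and basophil lists had no count of 0 in any Angus heifer. No named gene of the monocyte, natural killer, dendritic or red blood cell lists was among the genes tested, so these cells could not be checked by name.

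The 12 libraries were not equally distant from each other. The biological coefficient of variation between a pair of libraries, the share by which a typical gene differs beyond counting noise, was 0.038 between heifers 15 and 19, 0.045 between heifers 13 and 22 and 0.058 between heifers 14 and 20. It was 0.098 to 0.25 (median 0.177) in the other 63 pairings of Angus heifers. Each of these 3 close pairs joined a Sub-Fertile to a Fertile heifer. The counts within a pair were not copies of each other, since the totals differed. The typical squared difference was 3.21 to 7.15 times that of sampling noise. That ratio takes only the total counts into account, so it cannot tell whether 1 library was sequenced again. Heifers 11, 12, 16 and 18 were closest to a Holstein heifer (heifers 1, 8, 7 and 10, with coefficients of 0.052, 0.049, 0.083 and 0.062), and only heifers 17 and 21 had no close partner. The labels name no batch, extraction day or kinship that joins these heifers, and the origin of the pairs was not tested.

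The first principal component held 47.7% of the variance of the 500 most variable genes and the second held 13.6%. On the first, the mean score was -1.90 ± 11.9 (SD, n = 5) in Fertile and 1.36 ± 10.0 (n = 7) in Sub-Fertile heifers, a difference of -3.27 (exact permutation test over 792 regroupings, two-sided, p = 0.605, adjusted over the 2 components p = 0.683). The second differed by 1.47 (exact permutation test, p = 0.683). Both groups spanned the plot.

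**Figure D1:**
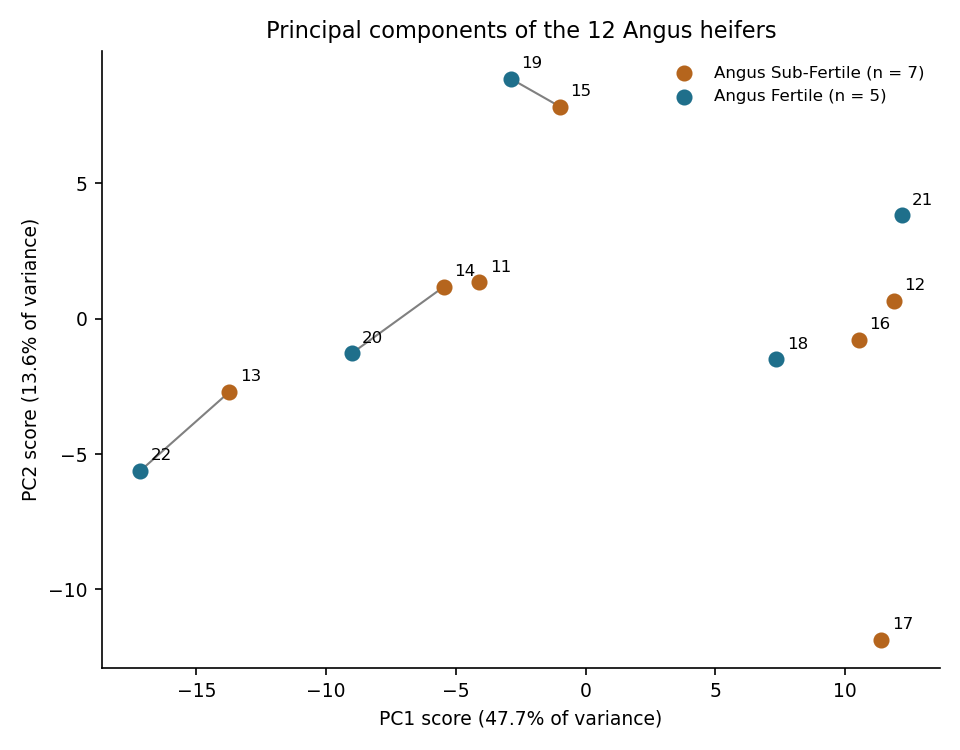
Scores of the 12 Angus heifers on the first and second principal components of variance-stabilized counts, each point 1 heifer with its number and lines joining the 3 close pairs. Fertile and Sub-Fertile heifers were interspersed, and heifer 17 lay apart on the second component.

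No gene passed correction for multiple testing within Angus. Of 13231 genes tested, 0 (0%) had an adjusted p under 0.05 by the edgeR quasi-likelihood test, where the smallest adjusted p was 0.964, and 0 by the DESeq2 Wald test or the DESeq2 likelihood ratio test. At an unadjusted edgeR p under 0.05 there were 393 genes (2.97%), of which 169 (1.28%) were higher and 224 (1.69%) lower in Fertile heifers. The Wald test gave 535 (4.04%) and the likelihood ratio test 530 (4.01%) at the same limit. The share in each test was below the limit of 0.05, which is the share expected if no gene differed. The same held at an edgeR p under 0.01, which 14 genes (0.106%) reached. A p under 0.01 in all 3 tests was reached by 14 genes (0.106%), 11 higher (0.0831%) and 3 lower (0.0227%) in Fertile heifers. Without Sub-Fertile heifer 16 this number was 6, and without Fertile heifer 20 it was 58. The median log2 fold change over all genes was 0.01, and 54.0% of genes had a value above 0. The genes described below are therefore the ends of a ranking, and none is a call after correction.

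Of these 14, 6 are described here by name, and all 6 were higher in Fertile heifers. They did not belong to a single pathway: POLA2 is a subunit of the DNA polymerase alpha and primase complex that begins each new DNA strand, KREMEN2 a membrane receptor that helps Dickkopf proteins restrain Wnt signaling, NUP85 a scaffold protein of the nuclear pore, TMEM129 a ubiquitin ligase of the endoplasmic reticulum and TRIOBP an actin-bundling protein. C3H1orf122 is an open reading frame with no role given here. The plot of the leading genes gives the level of each in every heifer.

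C3H1orf122 (ENSBTAG00000045776, ARS-UCD1.2 chromosome 3, 108107987 to 108109056) had the smallest p. Its level in the Fertile heifers was 7.52, 8.37, 8.94, 8.95 and 8.09 CPM for heifers 18 to 22, and in the Sub-Fertile heifers it ran from 5.17 through a median of 5.88 to 7.11 CPM. Every Fertile heifer was above every Sub-Fertile heifer. The log2 fold change was 0.43 (SE 0.12, edgeR unadjusted p = 0.00215, adjusted p = 0.964; exact permutation test on log2(CPM + 1) over 792 regroupings, p = 0.00253). The smallest p this permutation test can give is 0.00126, and neither p nor those that follow are corrected for the choice of the gene. It lay between 0.40 and 0.47 whichever heifer was left out. Within the close pairs the Fertile heifer was higher by 0.19, 0.34 and 0.45 on the log2(CPM + 1) scale.

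POLA2 (chromosome 29, 43477495 to 43504482) was at 36.3 CPM in Fertile heifer 18 and at 24.7, 25.7, 26.3 and 22.9 CPM in heifers 19 to 22, against 19.03 to 23.9 CPM (median 20.6) in Sub-Fertile heifers. Its log2 fold change of 0.39 (SE 0.11, edgeR unadjusted p = 0.00372, exact permutation p = 0.00253) became 0.27 without heifer 18, which stood far above its group. The groups overlapped through heifer 22, which was below Sub-Fertile heifer 15.

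KREMEN2 (chromosome 25, 2371361 to 2375302) was scarce, at 1.71, 1.67, 1.79, 2.22 and 2.17 CPM in heifers 18 to 22 and at 0.702 to 1.64 CPM (median 1.10) in Sub-Fertile heifers. The groups did not overlap, and the log2 fold change was 0.73 (SE 0.21, edgeR unadjusted p = 0.00415, exact permutation p = 0.00379). In the 3 close pairs the Fertile heifer was higher by 0.26, 0.23 and 0.43 on the log2(CPM + 1) scale. Its level lay near the limit of 1 CPM used to keep a gene.

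The other 3 differed by small amounts with a tight spread. NUP85 was at 79.3 ± 3.61 CPM (SD, n = 5) in Fertile and 69.8 ± 3.77 CPM (n = 7) in Sub-Fertile heifers, a log2 fold change of 0.18 (SE 0.06, edgeR unadjusted p = 0.0071, exact permutation p = 0.00505). TMEM129 was at 46.0 ± 2.84 and 40.1 ± 2.05 CPM, a log2 fold change of 0.20. TRIOBP was at 92.6 ± 5.01 and 81.3 ± 4.89 CPM, a log2 fold change of 0.19. In each of the 3 genes the highest Sub-Fertile heifer reached into the Fertile range, and in all 3 close pairs the Fertile heifer was the higher (for NUP85 by 0.07, 0.21 and 0.13). The Fertile heifer of all 3 pairs differed in the direction of the whole comparison for 32.4% of all genes tested.

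**Figure D2:**
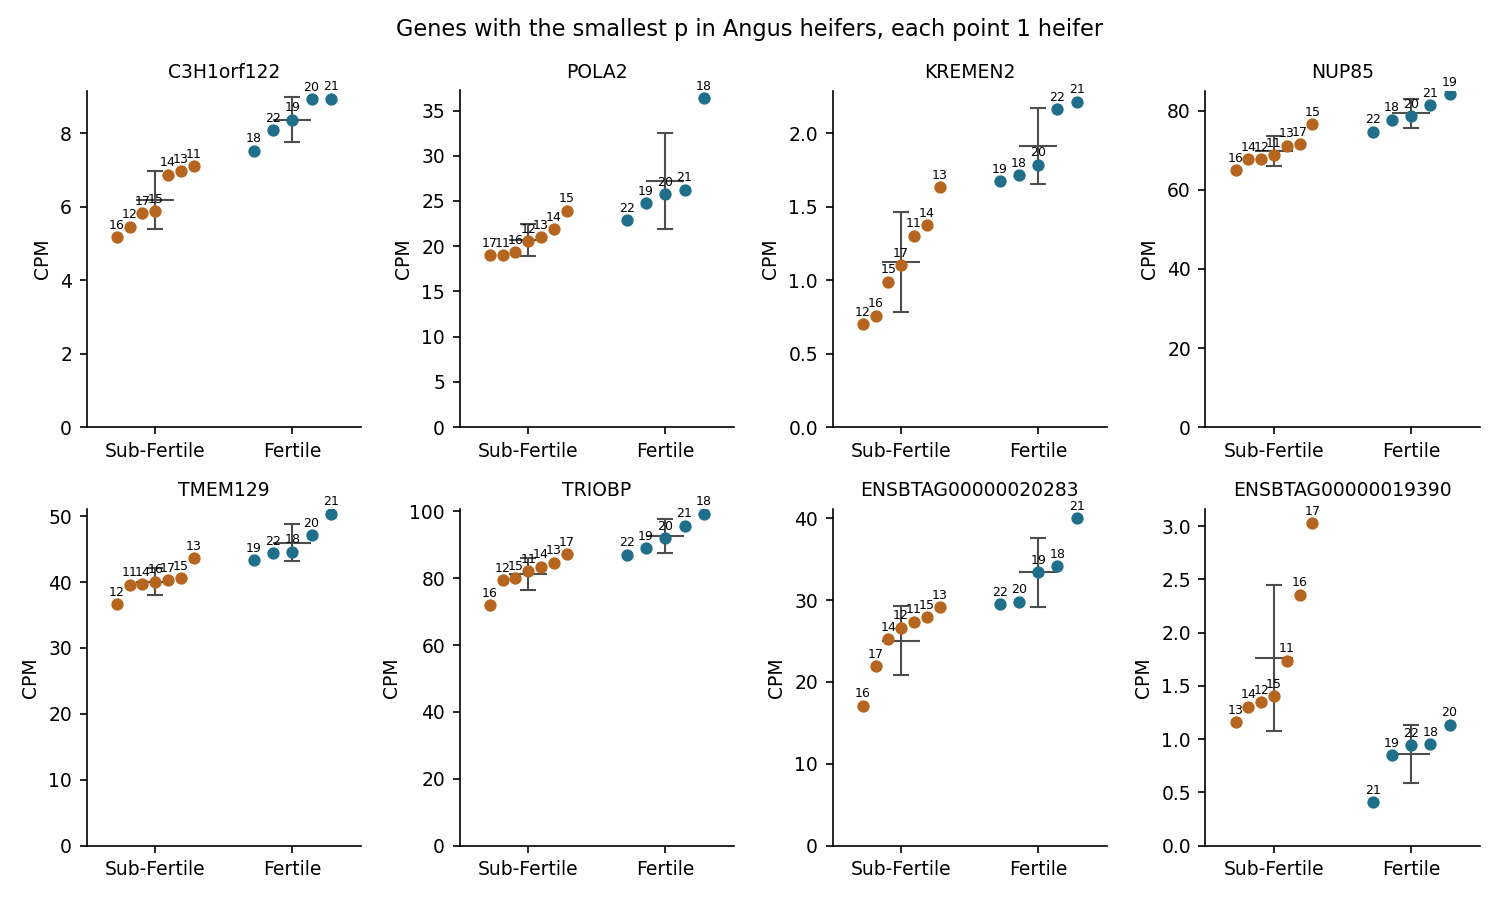
CPM of 6 named genes and 2 unnamed genes with a p under 0.01 in 3 tests in 7 Sub-Fertile and 5 Fertile Angus heifers, each point a heifer with its number, horizontal bars the group mean and error bars the SD, and axes starting at 0. The groups do not overlap for C3H1orf122, KREMEN2, ENSBTAG00000020283 and ENSBTAG00000019390, and heifer 18 stands above the other Fertile heifers for POLA2.

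Among the genes without a name, ENSBTAG00000000296 and ENSBTAG00000020283 were higher in Fertile heifers. The second was at 34.1, 33.4, 29.8, 39.98 and 29.5 CPM in heifers 18 to 22 and at 17.1 to 29.1 CPM (median 26.6) in Sub-Fertile heifers, without overlap and with a log2 fold change of 0.41 (SE 0.13). ENSBTAG00000019390 and ENSBTAG00000007882 were lower. The first was at 0.953, 0.848, 1.14, 0.410 and 0.945 CPM in heifers 18 to 22 and at 1.16 to 3.03 CPM (median 1.41) in Sub-Fertile heifers (log2 fold change -0.98, SE 0.29). It passed the limit of 1 CPM through the Sub-Fertile group, in 7 of 7 Sub-Fertile and 1 of 5 Fertile heifers. A low level in the Sub-Fertile group as well would have kept it from being tested. In Holstein heifers its log2 fold change was 0.35 (interaction, edgeR unadjusted p = 0.00497, adjusted p = 0.463). The log2 fold change of -3.25 for ENSBTAG00000007882 came from individual heifers, with heifers 12 and 17 at 11.8 and 11.7 CPM. Only Sub-Fertile heifers (5 of 7) exceeded 1 CPM, so this gene too was tested through that group alone. Sub-Fertile heifers 14 and 16, at 0.282 and 0.0760 CPM, were below all 5 Fertile heifers.

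The groups did not overlap for 10 genes (0.0756% of those tested), 7 with every Fertile heifer above (0.0529%) and 3 with every Fertile heifer below (0.0227%). Complete separation in a given direction arises in a share of 0.00126 of the 792 regroupings. Both shares found were below that. Besides the genes given above, 3 of the 10 had names and were singled out after their values were seen. SLC35C1, the Golgi transporter of GDP-fucose needed for the selectin ligands of leukocytes, was at 19.96 to 22.2 CPM in Fertile and 14.1 to 19.8 CPM in Sub-Fertile heifers (log2 fold change 0.19, SE 0.09, edgeR unadjusted p = 0.0463, exact permutation p = 0.00505). DCTN3, a subunit of the dynactin complex, was at 35.8 to 39.6 and 28.1 to 35.7 CPM (log2 fold change 0.14, edgeR unadjusted p = 0.0604, exact permutation p = 0.00631). The membrane protein TMEM248 was at 95.8 to 110.4 CPM in Fertile and 110.5 to 122.04 CPM in Sub-Fertile heifers (log2 fold change -0.10, edgeR unadjusted p = 0.104, exact permutation p = 0.00379). In all 3 the gap between the groups was narrow. They were picked for complete separation of the groups, so their small exact permutation p followed from that choice and is no support. Without heifer 21 the value of TMEM248 was -0.06, and heifer 16 was the lowest of all 12 for SLC35C1 and DCTN3.

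Names were at hand for 1227 of the 13231 genes, all of them among the genes with the smallest p of the study's comparison over both breeds, which includes these 12 heifers. The direction of named genes is therefore partly set by how they were chosen, and their counts are read against other named genes: 57.9% of named genes had a log2 fold change above 0, 6.03% were higher and 5.38% lower at an unadjusted p under 0.05, while 2.11% of unnamed genes passed that limit in either direction.

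DNA replication and cell cycle genes were higher in Fertile heifers as a group, and the difference rested on heifer 18. Of 50 genes listed, 42 were named and tested, and all 42 had a log2 fold change above 0, from 0.10 for RAD51AP1, a DNA repair protein, to 0.56 for CDC20, the activator of the anaphase-promoting complex. The median was 0.38, and 6 of the 42 had an unadjusted p under 0.05, all higher. These were E2F1, a transcription factor that switches on S-phase genes, CDT1, which licenses replication origins, CCNE1, the cyclin that drives entry into S phase, FOXM1, which switches on mitotic genes, MCM4, a subunit of the replicative helicase, and AURKB, a mitotic kinase.

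The level of each in single heifers shows how the group difference arose. CDT1 was at 43.4 CPM in heifer 18 and at 21.6, 17.02, 25.3 and 17.6 CPM in heifers 19 to 22, against 14.999 to 21.99 CPM (median 17.6) in Sub-Fertile heifers (log2 fold change 0.52, SE 0.21, edgeR unadjusted p = 0.0269, exact permutation p = 0.048). E2F1 was at 34.4 CPM in heifer 18, 25.1 CPM in heifer 21 and 15.9 to 19.4 CPM in the other Fertile heifers, against 14.9 to 19.98 CPM in Sub-Fertile heifers (log2 fold change 0.43, SE 0.17, edgeR unadjusted p = 0.0262, exact permutation p = 0.0518). MKI67, the proliferation marker Ki-67, was at 895 CPM in heifer 18 and at 230 to 406 CPM in the other Fertile heifers, against 263 to 432 CPM in Sub-Fertile heifers (log2 fold change 0.43, SE 0.26, edgeR unadjusted p = 0.127, exact permutation p = 0.348). Heifers 19, 20 and 22 did not exceed the Sub-Fertile range for any of these 3 genes.

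Summed over the 42 genes, heifer 18 reached 4470 CPM, and the other 11 Angus heifers lay between 1807 and 2486 CPM. The other 4 Fertile heifers were at 1807 to 2361 CPM and the 7 Sub-Fertile heifers at 1853 to 2486 CPM (median 1956), so apart from heifer 18 only heifer 20, below all others, lay outside the Sub-Fertile range. Leaving out heifer 18 lowered the median log2 fold change of the 42 genes from 0.38 to 0.05, left 30 of 42 above 0 and left 0 of the 42 at an unadjusted p under 0.05. Without any 1 of the other heifers the median stayed between 0.33 and 0.48 with all 42 above 0. With the close pairs as blocks, the median was -0.05 and 8 of 42 were above 0.

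The Holstein comparison held a heifer of the same kind. Heifer 10, Holstein Fertile and the close partner of heifer 18, summed to 4654 CPM. The 42 genes had a median log2 fold change of 0.36 in Holstein heifers, with all 42 above 0, and of 0.03 with 25 of 42 above 0 once heifer 10 was left out. The difference in replication genes thus rested on 1 library in each breed, and those 2 libraries formed a close pair. These genes were named from the comparison over both breeds, so their shared sign is partly set by that choice.

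**Figure D3:**
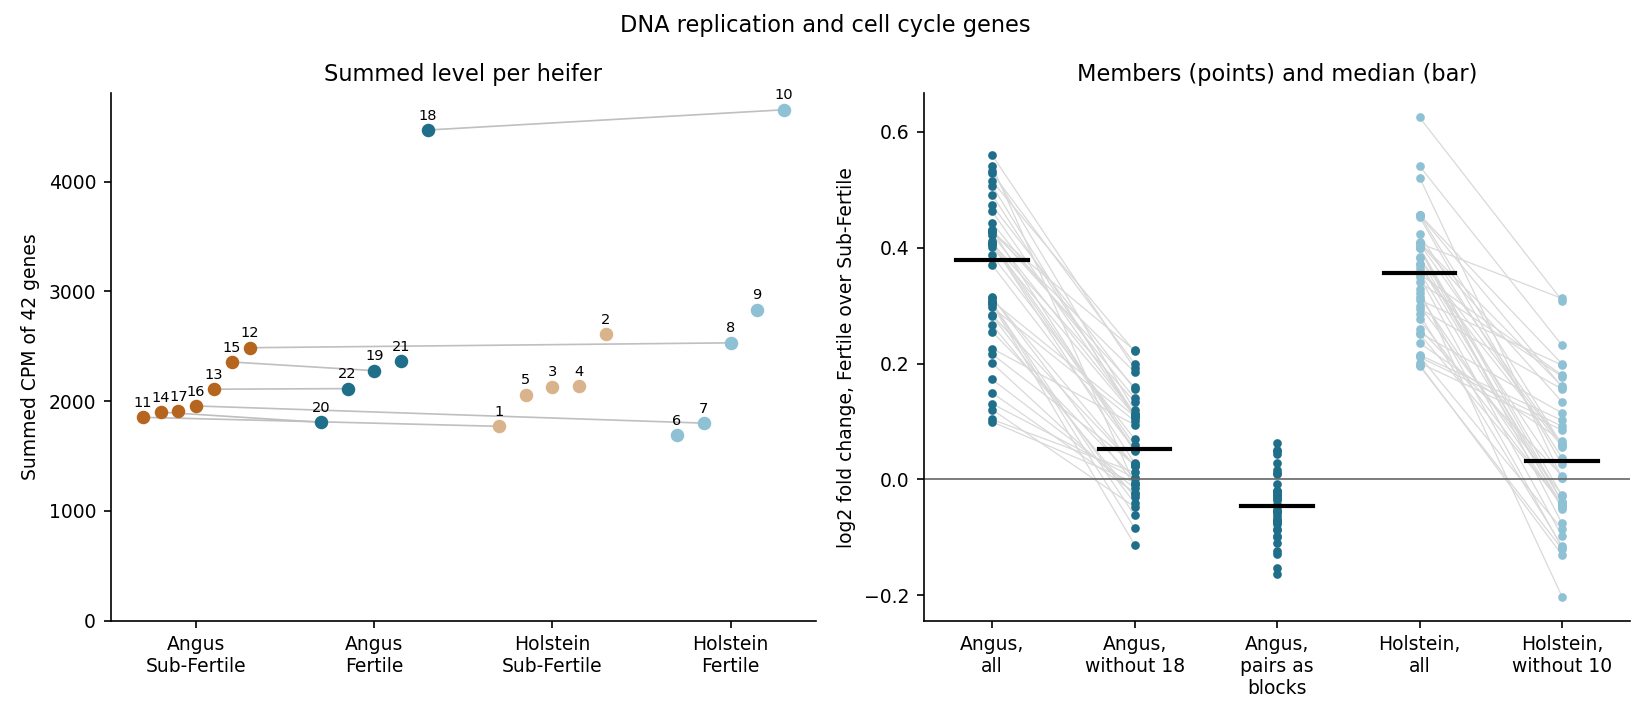
Left, summed CPM of 42 DNA replication and cell cycle genes in each of the 22 heifers by group, with numbers naming heifers and lines joining close pairs; right, log2 fold change (Fertile over Sub-Fertile) of the 42 genes, points for genes and bars for medians, in Angus and Holstein with and without heifers 18 and 10 and in Angus with the close pairs as blocks. Heifers 18 and 10 stand at 4470 and 4654 CPM, and the median is 0.38 with and 0.05 without heifer 18 in Angus and 0.36 with and 0.03 without heifer 10 in Holstein.

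Genes of mitochondrial respiration and translation mostly had small log2 fold changes above 0, few of which passed an unadjusted p under 0.05. The named members were above 0 for 16 of 16 genes of respiratory complex I (median log2 fold change 0.11), 10 of 11 of complexes II to IV (0.08), 6 of 7 of ATP synthase (0.07) and 19 of 19 of the mitochondrial ribosome (0.10). That limit was passed by 1, 1, 2 and 1 members of the 4 lists, all higher, against 6.03% of all named genes. These were NDUFV1, the flavoprotein of complex I that oxidizes NADH, CYC1, the cytochrome c1 of complex III, ATP5F1D and ATP5MC1, subunits of the catalytic head and of the membrane ring of ATP synthase, and MRPS2, a protein of the small mitochondrial ribosomal subunit. The ATP synthase list did not hold ATP8, a further subunit described below. ATP8 was lower in Fertile heifers (log2 fold change -0.70, edgeR unadjusted p = 0.0192).

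NDUFV1 was at 125 CPM in heifer 18 and 101 to 106 CPM in the other Fertile heifers, against 77.8 to 103 CPM (median 96.7) in Sub-Fertile heifers (log2 fold change 0.18, SE 0.08, edgeR unadjusted p = 0.0392, exact permutation p = 0.0189). ATP5F1D was at 136 and 157 CPM in heifers 18 and 21 and 120 to 124 CPM in the other 3, against 104.7 to 125 CPM (log2 fold change 0.18, SE 0.08, edgeR unadjusted p = 0.0309, exact permutation p = 0.0265). Heifer 18 was the highest for NDUFV1 and heifer 21 for ATP5F1D, and Sub-Fertile heifer 16 was the lowest for both. Without heifer 21 the log2 fold change of ATP5F1D was 0.11, and without heifer 18 that of NDUFV1 was 0.12. The 3 Fertile heifers of the close pairs lay near the top of the Sub-Fertile range.

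The lists moved with these 2 heifers. Without heifer 18, 13 of 16 complex I genes were above 0 with a median of 0.07, and 0 members of the 4 lists had an unadjusted p under 0.05. Without heifer 16, 15 of 16 were above 0 with a median of 0.07, and again 0 members passed. With the close pairs as blocks, 6 of 16 complex I genes (median -0.01), 2 of 11 of complexes II to IV (-0.03) and 2 of 7 of ATP synthase (-0.06) were above 0, and 1, 4 and 4 of them were lower at an unadjusted p under 0.05. The mitochondrial ribosome had 17 of 19 above 0 with a median of 0.06. Of the named genes only ATP8, an ATP synthase subunit, is encoded by the mitochondrial genome, and it was singled out after its values were seen. It was lower in Fertile heifers, at 60.9, 48.1, 36.1, 30.4 and 43.1 CPM in heifers 18 to 22 against 45.8 to 132 CPM (median 58.1) in Sub-Fertile heifers, with a log2 fold change of -0.70 (SE 0.26, edgeR unadjusted p = 0.0192, exact permutation p = 0.0341). Heifers 12 and 16, at 88.1 and 132 CPM, were far above the rest, and without heifer 16 the value was -0.48 (edgeR unadjusted p = 0.0266). In Holstein heifers it was 0.12 (interaction, edgeR unadjusted p = 0.018, adjusted p = 0.463).

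**Figure D4:**
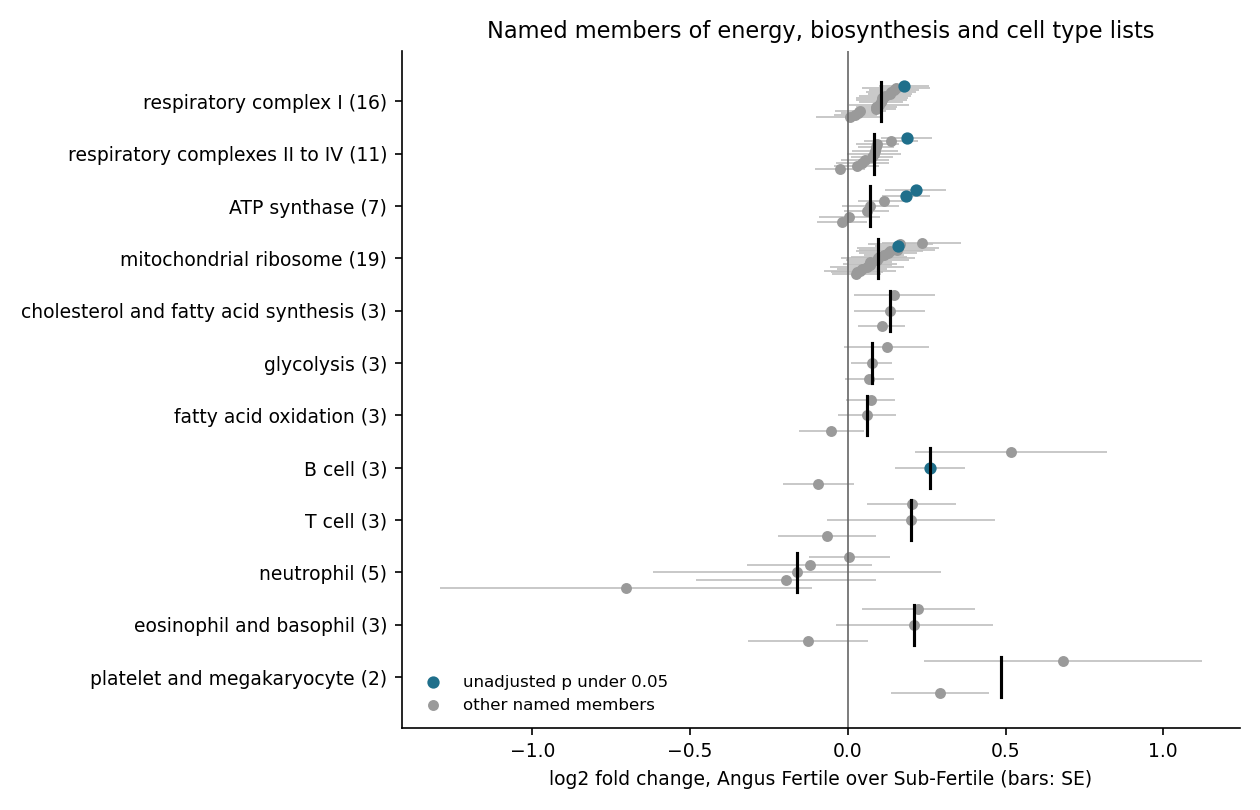
Log2 fold change (Angus Fertile over Sub-Fertile) with SE of the named members of 12 gene lists, number of members in brackets, vertical bars for list medians and filled blue points for members at an unadjusted edgeR p under 0.05. Members of the 4 mitochondrial lists sit between -0.02 and 0.23, while the few neutrophil and platelet members are spread more widely with larger errors. ATP8 is not a member of these lists and is not shown.

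Few cell type markers were named, and 1 of them passed an unadjusted p under 0.05. Of 3 named B cell genes, XBP1, the transcription factor of the plasma cell secretory program, was higher in Fertile heifers (194 CPM in heifer 18 and 121.8 to 148 CPM in the others, against 110 to 141 CPM, log2 fold change 0.26, SE 0.11, edgeR unadjusted p = 0.0338, exact permutation p = 0.048). The fold change was 0.14 without heifer 18. MZB1, a chaperone of antibody assembly, was at 143 CPM in heifer 18 and 58.7 to 100.4 CPM in the other Fertile heifers, against 36.9 to 117 CPM (log2 fold change 0.52, SE 0.30, edgeR unadjusted p = 0.114, exact permutation p = 0.134), and 0.30 without heifer 18. BANK1, a B cell receptor scaffold, had a log2 fold change of -0.09 (SE 0.11), and of -0.02 without heifer 18, so its direction is uncertain.

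None of the 5 named neutrophil genes passed an unadjusted p under 0.05, and 1 of 5 was above 0. TGM3, a transglutaminase, was at 115 CPM in Sub-Fertile heifer 16 and at 13.2 to 37.2 CPM in the other Sub-Fertile heifers, against 4.60 to 46.8 CPM in Fertile heifers (log2 fold change -0.70, SE 0.59), and without heifer 16 the value was -0.11. CSF3R, the receptor of granulocyte colony-stimulating factor, was at 275 ± 60.7 CPM (SD, n = 5) in Fertile and 299 ± 84.7 CPM (n = 7) in Sub-Fertile heifers. Summed over the 5 genes, the groups ran from 394 to 515 CPM and from 356 to 711 CPM, so the Fertile range lay inside the Sub-Fertile range. The T cell genes IL2RA, FOXP3 and GATA3 summed to 110 to 152 CPM in Fertile and 104 to 165 CPM in Sub-Fertile heifers, and 0 of 3 passed. The platelet genes GP9, part of the von Willebrand factor receptor, and ITGA2B, an integrin of the fibrinogen receptor, had log2 fold changes of 0.68 (SE 0.44) and 0.29 (SE 0.15). Without heifer 21 the value of GP9 was 0.31, and without heifer 22 it was 0.96. The part of cell type shares in the other differences was not tested.

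NR3C1, the glucocorticoid receptor, was lower in Fertile heifers, at 99.0, 111, 107, 94.1 and 124 CPM in heifers 18 to 22 against 107 to 138 CPM (median 123) in Sub-Fertile heifers (log2 fold change -0.19, SE 0.09, edgeR unadjusted p = 0.0457, exact permutation p = 0.0543). Within the 3 close pairs it differed by 0.01 each on the log2(CPM + 1) scale, so the group difference lay between the unpaired heifers. SGK1, a kinase induced by glucocorticoids, was the only other named member of the hormone reception list, with a log2 fold change of -0.14 (SE 0.17). The remaining lists had 1 to 3 named members each: 3 of 3 cholesterol and fatty acid synthesis genes, 3 of 3 glycolysis genes and 2 of 3 fatty acid oxidation genes were above 0, and none of these 9 passed an unadjusted p under 0.05. Both named members of the N6-methyladenosine list were below 0, the reader proteins YTHDC2 (-0.14, SE 0.08) and YTHDC1 (-0.11, SE 0.08), at -0.09 and -0.04 without heifer 21. The inflammatory cytokines IL1B and TNF had log2 fold changes of -0.38 (SE 0.32) and -0.09 (SE 0.11), at -0.15 without heifer 16 for IL1B, and no gene of the interferon response, prostaglandin or major histocompatibility class II lists had a name here.

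The study names 9 transcripts for fertility over both breeds, and all 9 were tested here. Since these Angus heifers were part of that choice, their direction is not independent. Of these, 7 were above 0 in Angus. APMAP, an adipocyte plasma membrane protein, was at 53.6, 56.0, 54.1, 55.2 and 55.4 CPM in heifers 18 to 22 and at 44.3 to 54.7 CPM (median 50.2) in Sub-Fertile heifers. Fertile heifers were tightly grouped, with an SD of 0.988 CPM against 3.91 CPM in Sub-Fertile heifers, and the log2 fold change was 0.14 (SE 0.07, edgeR unadjusted p = 0.0485, exact permutation p = 0.0202). DNAI7, an intermediate chain of axonemal dynein, was at 3.33, 3.74, 3.74, 3.12 and 4.19 CPM against 3.74 to 5.06 CPM (median 4.34), a log2 fold change of -0.28 (SE 0.13, edgeR unadjusted p = 0.0487, exact permutation p = 0.0126).

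Among the other genes of that set, only ATP5MC1 had an unadjusted edgeR p under 0.05 in Angus. ATP5MC1 was higher by 0.21 (SE 0.10, edgeR unadjusted p = 0.0419, exact permutation p = 0.0278) on the log2 scale and by 0.14 without heifer 18. MYDGF, a growth factor of myeloid cells, had a log2 fold change of 0.19 (SE 0.09, edgeR unadjusted p = 0.0581) and CEP170, a centrosomal protein, of -0.18 (SE 0.09, edgeR unadjusted p = 0.0635). UQCRQ, a subunit of complex III, CCDC34 and RAD51AP1 had values of 0.14, 0.25 and 0.10 with unadjusted p of 0.134, 0.142 and 0.398 (edgeR), and of 0.08, 0.11 and -0.0057 without heifer 18. ASAP3, a regulator of Arf GTPases, was at 3.39 to 7.76 CPM in Fertile and 3.32 to 5.47 CPM in Sub-Fertile heifers, a log2 fold change of 0.17 (SE 0.23).

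Whether the difference depended on breed was tested as an interaction over all 22 heifers. Of 13535 genes, 0 (0%) had an adjusted p under 0.05 in edgeR (smallest 0.463) or in the DESeq2 Wald test, and 1408 (10.4%) had an unadjusted edgeR p under 0.05, 1657 (12.2%) by the Wald test. Within Holstein, 0 of 13072 genes (0%) had an adjusted edgeR p under 0.05, and 1247 (9.54%) had an unadjusted p under 0.05, 635 of them higher in Fertile heifers (4.86%). ASAP3 had a log2 fold change of 1.04 (SE 0.27) in Holstein and 0.17 in Angus (interaction, edgeR unadjusted p = 0.0247). C3H1orf122 had 0.01 (SE 0.16) in Holstein and 0.43 in Angus (interaction, edgeR unadjusted p = 0.0269). Neither passed correction, with an adjusted p of 0.463 for both.

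Other list members were higher in Fertile heifers in Holstein and near 0 in Angus, and their interaction did not pass correction. HADHA, the large subunit of the mitochondrial trifunctional protein of fatty acid oxidation, had log2 fold changes of -0.05 (SE 0.10) in Angus and 0.37 (SE 0.12) in Holstein (interaction, edgeR unadjusted p = 0.0146). GATA3, a transcription factor of helper T cells, had -0.07 (SE 0.15) and 0.50 (SE 0.12) (interaction, edgeR unadjusted p = 0.015). Over the 13004 genes tested in both breeds, 38.9% had the same sign in Angus and Holstein. Among the 388 of these genes at an unadjusted edgeR p under 0.05 in Angus, the share was 34.5%. It was 80.6% for the named and 8.84% for the unnamed ones. Names came from the comparison over both breeds, where genes of opposite sign tend to have a larger p. The high share of named genes and the low share of unnamed genes are therefore both partly set by that choice. Libraries were also alike across breeds: Sub-Fertile Angus heifers 12 and 16 were the close partners of Fertile Holstein heifers 8 and 7, while heifers 11 and 18 were paired with Holstein heifers of their own fertility group. The part of these pairs in the signs of either breed was not tested.

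The close pairs also allowed a comparison within pairs of similar libraries that differed in depth, with each pair as a block in the model. There were then 799 genes (6.04%) with an edgeR adjusted p under 0.05, 519 higher (3.92%) and 280 lower (2.12%) in the Fertile heifer, on 2 residual degrees of freedom. All 799 differed in the same direction in the 3 pairs, which the test itself favors because it draws on these pairs alone. Of these 799, 31 had an unadjusted edgeR p under 0.05 over all 12 heifers, as did 393 of all 13231 genes tested (2.97%). With TMM factors, which rescale the libraries for their composition, 524 genes passed, of which 186 were higher and 338 lower, so the balance of directions turned with the scaling. The number was 415 without the pair of heifers 14 and 20 and 478 without the pair of heifers 15 and 19. The pairs were defined from these same counts, so this is a description of 3 pairs of libraries and not a result of the study's design.

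Depth moved with these differences. In every pair the Fertile library was the deeper, by 1.29-fold (heifers 22 and 13), 1.74-fold (20 and 14) and 1.39-fold (19 and 15), so depth and fertility group cannot be told apart within the pairs. The 100 most abundant genes took 12.4%, 12.6% and 13.2% of the counts in Fertile heifers 22, 20 and 19 and 13.3%, 14.2% and 14.0% in their partners, and 87, 92 and 84 of the 100 were lower in the Fertile heifer. Of the 59 genes among these 100 that passed, 56 were lower. The median level was 84.3 CPM for the genes that passed as higher and 284 CPM for those that passed as lower, against 29.1 CPM for all genes tested.

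**Figure D5:**
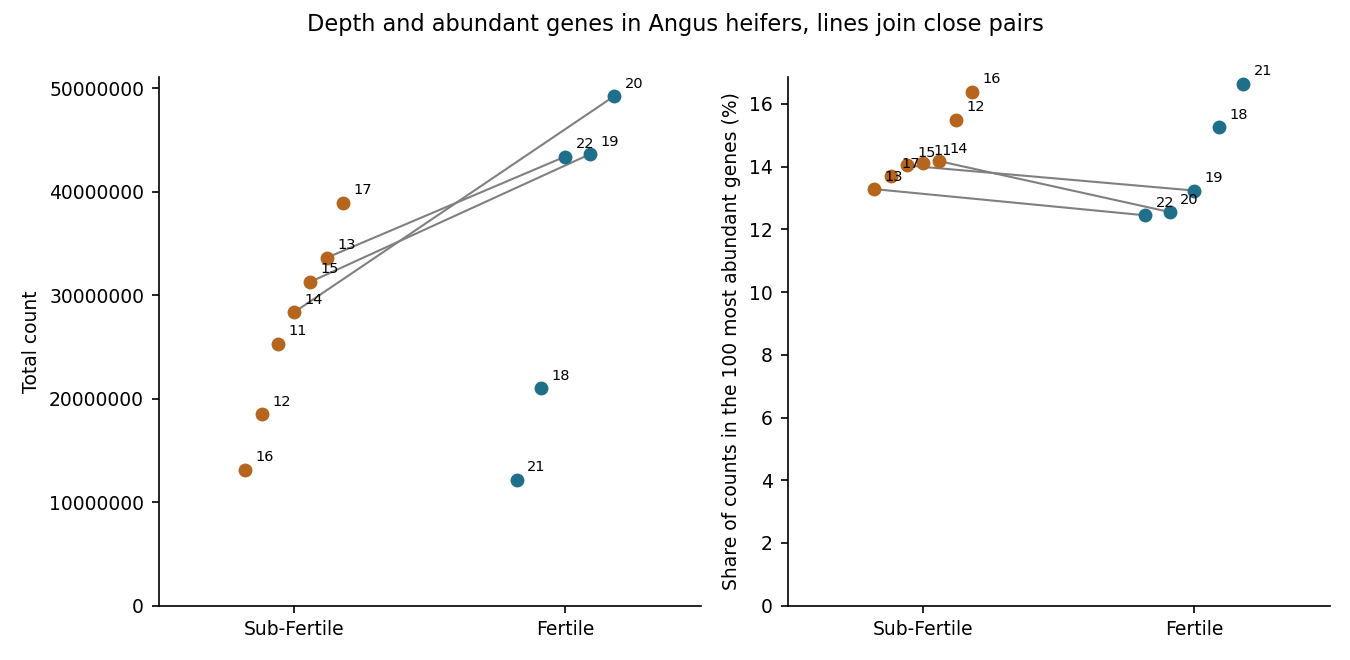
Left, total count, and right, percent of counts in the 100 most abundant genes, for each of the 12 Angus heifers (points, numbered) by group, with lines joining the 3 close pairs and axes starting at 0. In all 3 pairs the Fertile heifer has the larger total and the smaller share, whereas Fertile heifers 18 and 21 have among the smaller totals and the larger shares.

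Names were at hand for 28 of the 799 genes, 14 higher and 14 lower, and those given next were singled out after their values were seen. Of the leading genes of the whole comparison, C3H1orf122 (log2 fold change 0.36, SE 0.09, adjusted p = 0.0208), NUP85 (0.14, SE 0.03, adjusted p = 0.0166) and TRIOBP (0.11, SE 0.03, adjusted p = 0.0377) passed in edgeR with the pairs as blocks. With TMM factors C3H1orf122 (adjusted p = 0.0395) and NUP85 (0.0484) still passed and TRIOBP (0.134) did not. With the pairs as blocks, 201 genes had an unadjusted p under 0.01 in edgeR and in each DESeq2 test. Of the 14 genes that met this rule over all 12 heifers, 0 were among them. C3H1orf122, NUP85 and TRIOBP thus met that limit in edgeR but not in each DESeq2 test. SLC25A6, the carrier that exchanges ADP for ATP across the inner mitochondrial membrane, had a log2 fold change of -0.12 (SE 0.02) in the pairs and of 0.03 over all 12 heifers. STK17B, a kinase of lymphocyte activation and apoptosis, had -0.10 (SE 0.02) in the pairs and -0.30 over all heifers (edgeR unadjusted p = 0.011). The pairs hold 6 of the 12 heifers of the whole comparison, so the values of a gene in both comparisons are not independent.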

How the data were processed

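White blood cell RNA of 22 heifers was sequenced by the authors as 150-base paired reads from a stranded mRNA kit. Reads were aligned by the authors to ARS-UCD1.2 with hisat2 and cleaned with Samtools (unmapped and secondary alignments) and biobambam2 (duplicates), and the authors deposited whole-number counts of fragments per Ensembl gene from featureCounts (27607 genes, not normalized). Tool versions and the strand setting are not given in the sources used here, and overlapping genes on opposite strands are therefore uncertain. Duplicate removal can lower the counts of abundant genes more in deeper libraries.

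Within the 12 Angus heifers, a gene was tested if 5 or more had over 1 CPM after TMM scaling (13231). Counts were fitted in edgeR 4.0.16 (R 4.3.3; robust quasi-likelihood test, library sizes as total counts, as in the authors' code) and in DESeq2 1.42.0 (Wald and likelihood ratio tests), with Benjamini-Hochberg adjustment over all genes tested. Fold changes are Fertile over Sub-Fertile. The FPKM and biotype filters of the authors were not applied. Components used the 500 most variable genes after variance stabilization. Exact permutation tests were two-sided. Closeness of libraries used genes with a mean CPM above 20. Code was tested on simulated data.

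Gene names and positions came from the annotation columns of the authors' supplementary gene table, whose 1401 rows hold the smallest p over both breeds. Its fold changes and p-values were not used. Named genes were those with a p under 0.01 in 3 tests, genes the study names, up to 4 members of each list with the smallest p, and those of largest change, interaction or abundance. A gene of the first kind is not reported here. The members and the 27 lists were chosen with earlier results of these data known. Labels give no litter, pen or batch, and 1 heifer is 1 replicate. Alternatives were TMM factors, other filters, DESeq2, covariates, blocks, a fit over both breeds and each heifer left out.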

Additional observations from a re-analysis of the deposited data

Results flagged for a closer look

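Of 198 groups of values checked, each a gene, summed list, total or component within 1 Angus group, 18 had a heifer whose gap to the nearest other was large for the range of its group, a rule that chance alone meets in about 1 in 20 groups. Heifer 18 was the highest Fertile heifer in 9 of them: POLA2 (36.3 CPM), CCNE1 (24.9 CPM), NDUFV1 (125 CPM), ATP5MC1 (55.1 CPM), CCDC34 (6.48 CPM), HSPE1 (104 CPM), MCM4 (178 CPM), MKI67 (895 CPM) and the summed DNA replication and cell cycle genes (4470 CPM). Heifer 21 was the lowest Fertile heifer for MRPL27 (25.5 CPM) and TMEM248 (95.8 CPM). In Sub-Fertile heifers, heifer 16 was the lowest for UQCRFS1 (70.2 CPM), SLC35C1 (14.1 CPM) and DCTN3 (28.1 CPM) and the highest for TGM3 (115 CPM) and the summed T cell genes (165 CPM), and heifer 14 was the highest for MVK (50.9 CPM) and PGLYRP1 (2.50 CPM).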

How the results depend on the processing

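The 5 Fertile and 7 Sub-Fertile libraries limit what can be called. No paired analysis was possible because the labels give no number that joins Fertile to Sub-Fertile heifers. Blocks of close pairs, leaving out paired heifers and covariates were added after seeing the data. The cause was not tested for any shift given here, including those in which fewer heifers entered.

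No gene had an adjusted p under 0.05 with TMM factors, other filters, DESeq2, covariates, the fit over both breeds or any heifer left out. With close pairs as blocks there were 799, with TMM factors 524, and 728, 415 and 478 leaving out the pair of heifers 22 and 13, 20 and 14 or 19 and 15. The 14 genes at a p under 0.01 in 3 tests became 22 with no filter (11 shared), 201 with close pairs as blocks (0 shared), 151 without heifers 13, 14 and 15, 456 without heifers 19, 20 and 22, 26 with the first component as a covariate, 34 with log2 total count, 26 in the fit over all 22 heifers and 0 under the limits of the authors' code. Leaving out 1 heifer gave 6 (heifer 16) to 58 (heifer 20). The 393 genes at an unadjusted edgeR p under 0.05 became 151, 191 and 226 without heifer 16, 21 or 12 and 681 without heifer 22. Leaving out 1 heifer, the difference on the first component ran from -6.80 to 0.11 (without heifer 22), and on the second from -1.35 (without heifer 17) to 3.60, and the second was -1.22 for a larger set of variable genes and 4.44 for all genes tested.

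With close pairs as blocks, log2 fold changes turned sign for CDT1 (-0.054), CYC1 (-0.0060), NR3C1 (0.0098), CEP170 (0.029), ITGA2B (-0.013), YTHDC2 (0.011), GP9 (-0.20), ATP5MC3 (-0.069), UQCRC1 (-0.013), YTHDC1 (0.045), IL1B (0.035), DNAL1 (0.32), HSPE1 (-0.046), LDHB (-0.050), CCR3 (-0.079), ATP5F1B (-0.065), SGK1 (0.085), FCER1A (0.055), CSF3R (0.11), GATA3 (0.0089), MMP9 (0.14), MCM4 (-0.020), AURKB (-0.022), CDC20 (-0.054) and MKI67 (-0.044). Without heifers 19, 20 and 22 they did for HADH (-0.028), SLC2A1 (-0.10), CPT2 (-0.013) and GATA3 (0.056). Leaving out 1 heifer, the sign turned within MMP9 (-0.64 to 0.066), PGLYRP1 (-0.46 to 0.018), GATA3 (-0.14 to 0.036), HADHA (-0.13 to 0.0041) and, without heifer 18, HSPE1 (-0.013 to 0.12), LDHB (-0.0012 to 0.11), RAD51AP1 (-0.0057 to 0.17), ATP5F1B (-0.0074 to 0.090), TNF (-0.13 to 0.016), FOXP3 (-0.11 to 0.35) and ASAP3 (-0.046 to 0.28). None of the other genes followed through all of these alternatives turned sign. Further genes were recomputed under fewer alternatives, and some of these turned sign too. Examples were RRM2 (-0.12) and SLC25A6 (-0.12) with close pairs as blocks, and KIF11 (-0.11) without heifer 18.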
